A study of Mus musculus with 69 samples.

Results

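The Ifi200 family, also called the PYHIN family, is a cluster of interferon-inducible genes on mouse chromosome 1 that encode DNA-binding proteins. Members were taken by symbol: Ifi202b, Ifi203, Ifi204, Ifi205, Mnda, Mndal and Aim2. The tables listed 6 of these 7 symbols, and Mnda was not analysed here. The 6 genes stand among 24537 listed in each of the 3 expression tables and 24527 in each of the 2 allele tables. In mm10 they lie at Aim2 chr1:173420604-173466036 on the plus strand, and on the minus strand at Ifi204 chr1:173747294-173766919, Mndal chr1:173857220-173880187, Ifi203 chr1:173920401-173942492, Ifi202b chr1:173962569-173982844 and Ifi205 chr1:174011998-174031755. That interval of 611.2 kb holds 12 listed genes, the other 6 being Ifi207, Ifi208, Ifi209, Ifi211, Ifi213 and Ifi214.

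Polyadenylated RNA was sequenced from bone marrow-derived macrophages (BMDMs) grown for 7 days with M-CSF from mice of 8 to 12 weeks, left untreated (basal) or given 20 ng/ml interleukin 4 (IL-4), the cytokine of alternative macrophage activation. The strain set held 29 libraries of SPRET/EiJ (SPRET), C57BL/6J (C57), PWK/PhJ (PWK), BALB/cJ (BALB) and NOD/ShiLtJ (NOD) mice at basal and 24 h IL-4, with n = 3 a group and n = 2 for basal PWK. A time course of C57 and SPRET (basal, 1, 6 and 24 h) held 16 libraries. A deletion set with the same times held 16 libraries of Egr2 fl/fl macrophages without Cre (Egr2WT) and with LyzM-Cre (Egr2MKO), so both carried the floxed allele and the deletion rested on a promoter active across myeloid cells. F1 hybrids of C57 with NOD and of C57 with SPRET gave 8 libraries at basal and 24 h IL-4. All groups outside the strain set had n = 2. Nothing in the labels says that replicates came from separate animals, so p-values measure the spread between these libraries, which may be technical.

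PYHIN proteins pair a DNA-binding HIN domain with, in most members, a pyrin domain that recruits partner proteins. AIM2 binds cytosolic double-stranded DNA and assembles an inflammasome with the adaptor ASC (Pycard) and caspase-1, which matures interleukin 1 beta. The protein of Ifi204 is linked to the STING pathway of interferon induction, and that of Ifi202b lacks the pyrin domain and antagonises AIM2. The gene content of the cluster is known to differ between mouse strains, and C57BL/6 mice have long been known for little Ifi202b transcript.

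Each library of the expression tables held 4.69 M to 32.9 M mapped tags. The summed TPM of 7 macrophage markers was at least 9325 TPM in each strain-set, time-course and deletion library, and T and NK cell markers summed to at most 0.979 TPM. In the strain set, macrophage markers summed to 9325 to 9741 TPM in PWK and 16578 to 30188 TPM in the other strains. In the time course they summed to 40135 to 53701 TPM in SPRET and 21539 to 32210 TPM in C57. Mast cell and basophil markers summed to 7.86 to 14.4 TPM in strain-set SPRET and 0.184 to 7.38 TPM in the other strains. Neutrophil and granulocyte precursor markers summed to 548 to 599 TPM in PWK and 249 to 404 TPM in SPRET, against 15.1 to 131 TPM in the other strains of the strain set. The part of these marker differences in any strain difference given here was not tested. In bulk samples fewer cells of a type and less RNA per cell cannot be told apart. Levels are given in TPM (a length-corrected share of the transcripts in a library) and differences on the log2(TPM + 1) scale, which understates changes of low genes. Reads of related members can be shared: 45.2% of the 75-base words of the Ifi205 transcript also occurred in other listed genes, chiefly Ifi211, against 20.7% for Ifi204, 17.1% for Mndal, 2.56% for Ifi203 and 0% for Ifi202b and Aim2. Values of Ifi205, Ifi204 and Mndal are therefore uncertain to at least that extent. Only reference transcripts were compared, and the strain genomes used for mapping were the reference with variants added. Gene copies gained or lost in a strain would not be seen. In differences between strains, expression, gene content and mapping therefore cannot be told apart, for Ifi202b as well.

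Promoter sequences are shown to describe the members. RefSeq (GRCm38.p6, the C57BL/6J reference) had entries for 5 of the 6 genes and none for Ifi204. Each is the 150 bases before the annotated start, 5′ to 3′ on the gene's strand, with matches to the core of the interferon-stimulated response element (GAAA, any 2 bases, GAAA) in capitals. The windows are Ifi203 chr1:173942493-173942642 minus, Mndal chr1:173880188-173880337 minus, Ifi205 chr1:174031756-174031905 minus, Ifi202b chr1:173982845-173982994 minus and Aim2 chr1:173420454-173420603 plus.
Ifi203: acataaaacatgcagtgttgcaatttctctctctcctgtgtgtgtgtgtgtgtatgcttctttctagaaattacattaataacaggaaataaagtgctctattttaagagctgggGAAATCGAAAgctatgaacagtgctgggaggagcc
Mndal: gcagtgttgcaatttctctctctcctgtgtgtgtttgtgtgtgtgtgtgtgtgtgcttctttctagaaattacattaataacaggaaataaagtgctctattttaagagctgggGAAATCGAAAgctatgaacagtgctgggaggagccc
Ifi205: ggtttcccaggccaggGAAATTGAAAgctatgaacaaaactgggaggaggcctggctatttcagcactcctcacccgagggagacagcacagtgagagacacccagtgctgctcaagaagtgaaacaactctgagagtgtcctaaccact
Ifi202b: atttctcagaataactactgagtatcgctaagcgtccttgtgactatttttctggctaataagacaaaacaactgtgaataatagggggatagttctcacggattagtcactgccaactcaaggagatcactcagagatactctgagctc
Aim2: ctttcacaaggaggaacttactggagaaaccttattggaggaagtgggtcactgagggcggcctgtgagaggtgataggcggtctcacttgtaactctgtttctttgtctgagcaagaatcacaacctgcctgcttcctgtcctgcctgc

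Searched on both strands, this core occurred once in each of the Ifi203, Mndal and Ifi205 windows, starting 35, 36 and 134 bases before the annotated start, and not in those of Ifi202b and Aim2. It was held by 1.59% of 32851 windows of the same length. Over the 50 bases around the match, Ifi203 and Mndal were identical at 50 of 50 positions, and Ifi205 matched either at 36 of 50. The STAT6-type motif (TTC, any 4 bases, GAA; 3.17% of windows) and the EGR motifs GCGTGGGCG (0.426%) and GCGGGGGCG (2.09%) had no match in these 5 windows. Such matches are letters in the reference strain and not evidence of binding. Ifi203 and Mndal are so alike here that their matches are not separate observations, and no link to expression was tested.

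Ifi202b, the inhibitor in the family, was the member that most separated C57 from the other strains. Basal C57 libraries read 0, 0.093 and 0.037 TPM, and IL-4 libraries 0.188, 0.498 and 0.475 TPM. Basal levels were 38.5, 32.2 and 29.7 TPM in BALB, 95.6, 106.8 and 95.9 TPM in NOD, 126.1 and 106.5 TPM in PWK, and 81.2, 89.1 and 73.9 TPM in SPRET. No library of the other 4 strains came near the C57 range. The differences from C57 were 5.04 for BALB, 6.59 for NOD, 6.81 for PWK and 6.30 for SPRET, as log2(TPM + 1). Their size depends on the pseudocount, because C57 never reached 1 TPM. In the basal order, PWK exceeded NOD by 0.22 (95% confidence interval -0.01 to 0.45, limma adjusted p = 0.088), so these neighbours were not separated, whereas NOD stood 1.55 above BALB.

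After 24 h of IL-4, SPRET libraries read 233.9, 261.4 and 250.7 TPM of Ifi202b. This is an increase of 1.60 ± 0.10 (SE) on the log2(TPM + 1) scale, with limma adjusted p = 1.2e-12, and no IL-4 library overlapped the basal ones. PWK rose to 178.4, 179.4 and 160.6 TPM, a change of 0.57. In NOD the IL-4 libraries read 135.7, 116.8 and 122.8 TPM (0.33, adjusted p = 0.014), a difference that missed the threshold under median-ratio scaling (0.15, adjusted p = 0.22) and quantile normalization (0.27, adjusted p = 0.052). The C57 change (0.40, adjusted p = 0.0024) is between values below 0.5 TPM. BALB libraries read 38.2, 32.7 and 40.4 TPM and overlapped their basal range. With IL-4, SPRET stood above PWK by 0.52 (adjusted p = 4.8e-05) and PWK above NOD by 0.46 (adjusted p = 0.00025), an order led by SPRET and not by PWK.

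Aim2, the inflammasome sensor that Ifi202b opposes, was the only one of the 6 genes without a basal difference from C57 past 2-fold in the strain set. This did not hold in the time course. In PWK, Ifi203 lay nearer to C57 than Aim2 did, with basal means of 12.2 TPM in PWK and 13.3 TPM in C57. Basal levels ran from 13.5 to 16.5 TPM in C57, 13.8 to 16.3 TPM in BALB, 12.5 to 12.6 TPM in NOD, 18.4 to 19.9 TPM in PWK and 18.2 to 23.0 TPM in SPRET. PWK exceeded C57 by 0.37 and SPRET by 0.44 on the log2(TPM + 1) scale, neither reaching 2-fold. After IL-4, BALB fell from 16.3, 15.7 and 13.8 TPM to 12.007, 11.2 and 11.9 TPM, a change of -0.36 (limma adjusted p = 0.0039). The SPRET and PWK responses passed the adjusted p only after rescaling, at -0.28 (adjusted p = 0.0075) and -0.32 (adjusted p = 0.0098) with median-ratio scaling.

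Ifi204, the STING-linked member, was highest in PWK and C57 and lowest in BALB and SPRET. Basal levels were 89.4 and 77.3 TPM in PWK, 59.9, 64.8 and 60.8 TPM in C57, 47.6, 49.3 and 43.3 TPM in NOD, 23.4, 18.7 and 16.6 TPM in BALB and 19.4, 20.1 and 17.9 TPM in SPRET. BALB was below C57 by -1.62 (limma adjusted p = 9e-13) and SPRET by -1.64 on the log2(TPM + 1) scale. SPRET and BALB overlapped, with a difference of -0.02 (adjusted p = 0.87). The smaller NOD difference of -0.40 came to -0.04 (adjusted p = 0.65) under median-ratio scaling, where the median over all genes moved from -0.30 to -0.02.

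IL-4 raised Ifi204 in C57 to 89.1, 96.3 and 80.6 TPM (0.51, adjusted p = 2e-04) and in SPRET to 25.2, 28.5 and 26.2 TPM (0.46, adjusted p = 0.00053). PWK rose to 111.9, 114.1 and 103.3 TPM (0.39). NOD libraries read 65.8, 52.6 and 62.5 TPM with IL-4, against 47.6, 49.3 and 43.3 TPM at basal. The median over all genes also rose by 0.12 in NOD. In each of these strains the IL-4 and basal libraries did not overlap. BALB moved the other way, to 17.0, 15.1 and 14.1 TPM (-0.32, adjusted p = 0.016), although its range overlapped the basal one and the adjusted p was 0.071 with median-ratio scaling. The BALB response lay -0.83 below that of C57, a difference that passed the interaction test.

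Ifi203, a HIN-domain gene of the family, fell in C57 and BALB and was lowest in SPRET. SPRET libraries read 3.13, 3.43 and 3.27 TPM at basal against 13.3, 13.9 and 12.7 TPM in C57, a difference of -1.74 on the log2(TPM + 1) scale. Levels went from 18.2, 15.4 and 14.0 TPM to 11.5, 9.16 and 9.41 TPM with IL-4 in BALB (-0.61, limma adjusted p = 0.00029), and to 11.1, 10.2 and 7.36 TPM in C57 (-0.46, adjusted p = 0.0034). NOD did not fall: its IL-4 libraries read 20.0, 18.7 and 20.8 TPM against 15.7, 16.4 and 16.3 TPM (0.28, adjusted p = 0.066). With IL-4, NOD exceeded C57 by 1.00 (adjusted p = 5.7e-08), at the edge of 2-fold, and by 0.84 without the third C57 IL-4 library.

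Ifi205 had strain-dependent levels and the one IL-4 response in PWK that passed 2-fold. C57 libraries read 13.2, 13.6 and 11.8 TPM at basal and fell to 7.49, 7.20 and 6.66 TPM with IL-4 (-0.77, limma adjusted p = 2.3e-06). PWK libraries rose from 5.93 and 5.21 TPM to 14.9, 17.1 and 12.9 TPM (1.27 ± 0.12 SE, adjusted p = 8.6e-09). Neither strain's basal and IL-4 ranges overlapped, and the order of C57 and PWK was inverted between conditions.

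The difference between the PWK and C57 responses of Ifi205 was 2.05 ± 0.16 (SE, limma adjusted p = 9.6e-10). NOD lay between, at 2.91, 3.63 and 3.15 TPM and then 3.20, 2.23 and 2.39 TPM. BALB stayed at or below 0.188 TPM and SPRET at or below 0.996 TPM, too low for a fold to be given. SPRET still rose on the log2(TPM + 1) scale, from 0.302, 0.255 and 0.246 TPM to 0.809, 0.996 and 0.57 TPM (0.49, adjusted p = 0.00056). Because Ifi205 shares much sequence with Ifi211, the gene that gave rise to these reads is uncertain.

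Mndal, named for its likeness to the myeloid nuclear differentiation antigen, was lowest in PWK. PWK libraries read 1.29 and 0.865 TPM at basal, against 31.6, 31.7 and 28.6 TPM in C57, a difference of -3.94 on the log2(TPM + 1) scale (limma adjusted p = 1.2e-19). NOD read 17.3, 16.6 and 18.4 TPM, BALB 12.9, 11.1 and 11.4 TPM and SPRET 11.6, 12.9 and 11.7 TPM. BALB and SPRET were not separated (0.03, adjusted p = 0.81), and each PWK library was below every library of the other strains.

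IL-4 lowered Mndal in BALB to 6.73, 5.89 and 6.60 TPM (-0.79, limma adjusted p = 1.5e-06) and in NOD to 13.4, 14.2 and 14.2 TPM (-0.30, adjusted p = 0.025). In C57 the values were 27.6, 26.9 and 19.0 TPM (-0.33, adjusted p = 0.014), and without the third library the change was -0.16 (adjusted p = 0.18). PWK rose to 2.43, 2.86 and 2.46 TPM (0.79, adjusted p = 8.7e-06), still below each library of the other strains. The PWK and C57 responses differed by 1.12 ± 0.15 (SE, adjusted p = 7.5e-06), and by 0.98 with quantile normalization.

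**Figure D1:**
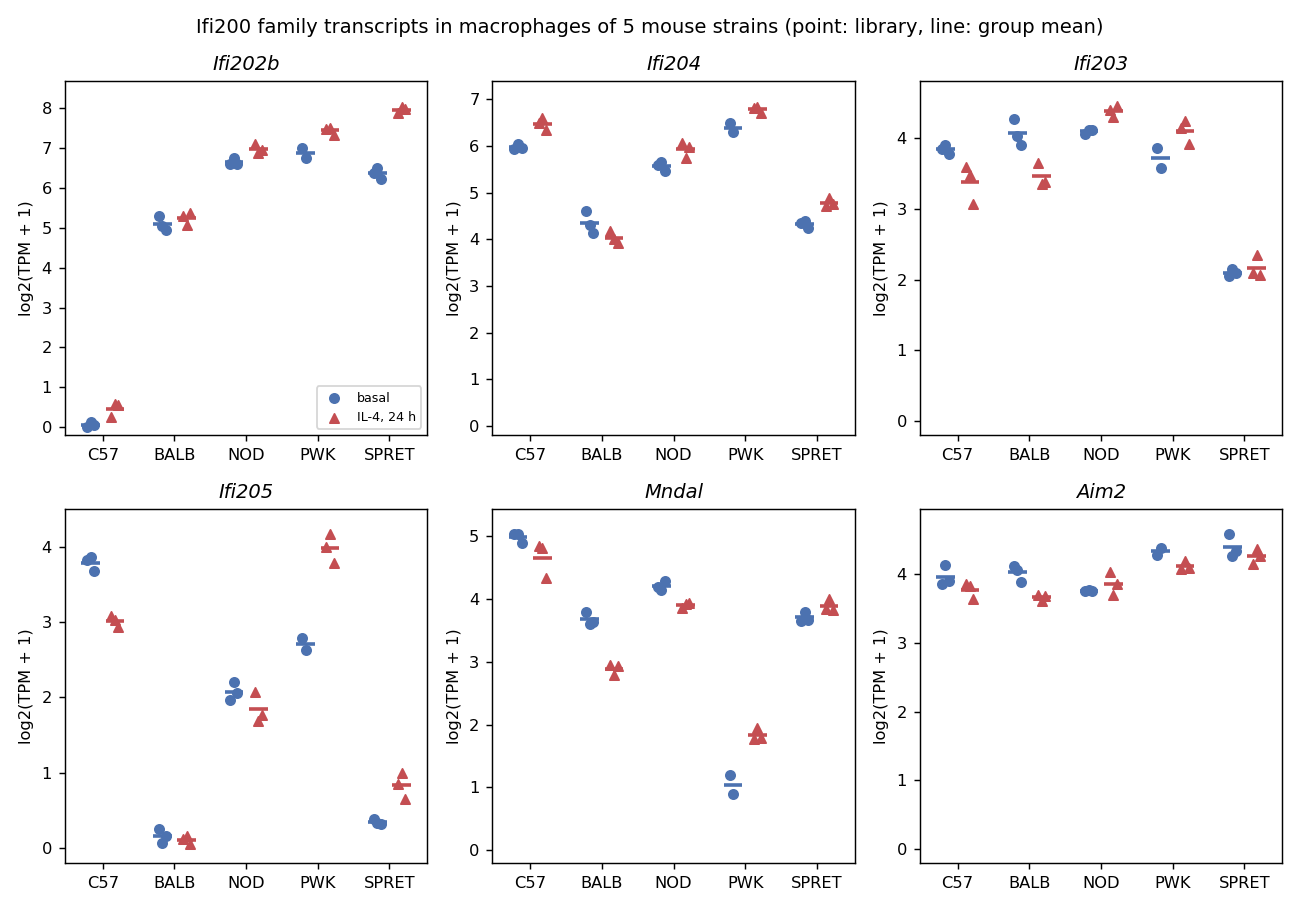
Level as log2(TPM + 1) of the 6 genes in each library of the strain set, basal and 24 h IL-4, with points for libraries and short lines at the group means. Ifi202b is at most 0.498 TPM in C57 and at least 29.7 TPM elsewhere, Mndal is lowest in PWK, and Aim2 spans the narrowest range over all libraries.

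Counted against the rest of the table, 11907 genes were tested and a call needed an adjusted p under 0.05 and more than 2-fold. At basal, the counts of members higher and lower than C57 were 1 and 3 of 6 in BALB (2.65% and 2.17% of all genes), 1 and 1 in NOD (5.15% and 11.7%), 1 and 2 in PWK (4.49% and 8.81%) and 1 and 4 in SPRET (8.58% and 9.52%). The one higher gene was Ifi202b in each strain, which could pass the filter only through strains other than C57 and had to differ. Ifi205 likewise never reached 1 TPM in BALB or SPRET. With IL-4 the counts were 1 and 3 in BALB (2.39% and 3%), 2 and 1 in NOD (5.44% and 7.73%), 1 and 1 in PWK (5.06% and 7.14%) and 1 and 3 in SPRET (11.8% and 8.81%). The PWK basal call of Ifi205 (-1.08) came to -0.93 and -0.88 under the other scalings, below 2-fold.

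For the 24 h IL-4 response itself, 1 member was called higher in PWK (Ifi205, background 1.54%) and 1 in SPRET (Ifi202b, background 2.32%). None was called in C57, BALB or NOD, where 2.28%, 1.27% and 0.731% of genes were called higher and 1.53%, 0.815% and 0.462% lower. At adjusted p alone, 2 members rose and 3 fell in C57 (15% and 20.5% of all genes), none rose and 4 fell in BALB (9.45% and 24.8%), 2 rose and 1 fell in NOD (28.2% and 6.07%), 5 rose and none fell in PWK (18.6% and 6.08%), and 3 rose and none fell in SPRET (31.4% and 12.9%). The counted rises include Ifi202b in C57 and Ifi205 in SPRET, which stayed below 1 TPM in every library there. Directions were opposite in C57 and PWK for Ifi203, Ifi205 and Mndal and in C57 and BALB for Ifi204, and each of these response differences passed the adjusted p. The PWK rise of Ifi203 (0.38, adjusted p = 0.037 by limma) did not hold under median-ratio scaling (0.28, adjusted p = 0.072). The median over all genes moved by -0.11 in BALB, 0.12 in NOD and 0.11 in SPRET.

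Response differences from C57 that passed 2-fold were those of Ifi205 and Mndal in PWK (background 1.26%) and of Ifi202b (1.20 ± 0.14 SE, limma adjusted p = 3.7e-07) and Ifi205 (1.27 ± 0.15, adjusted p = 4.6e-07) in SPRET (background 1.83%). The Ifi202b value rests on the pseudocount: with 0.1 TPM it was -0.13 (adjusted p = 0.77), since the C57 values are all below 0.5 TPM. No member passed 2-fold in BALB (0.63%) or NOD (1.04%).

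**Figure D2:**
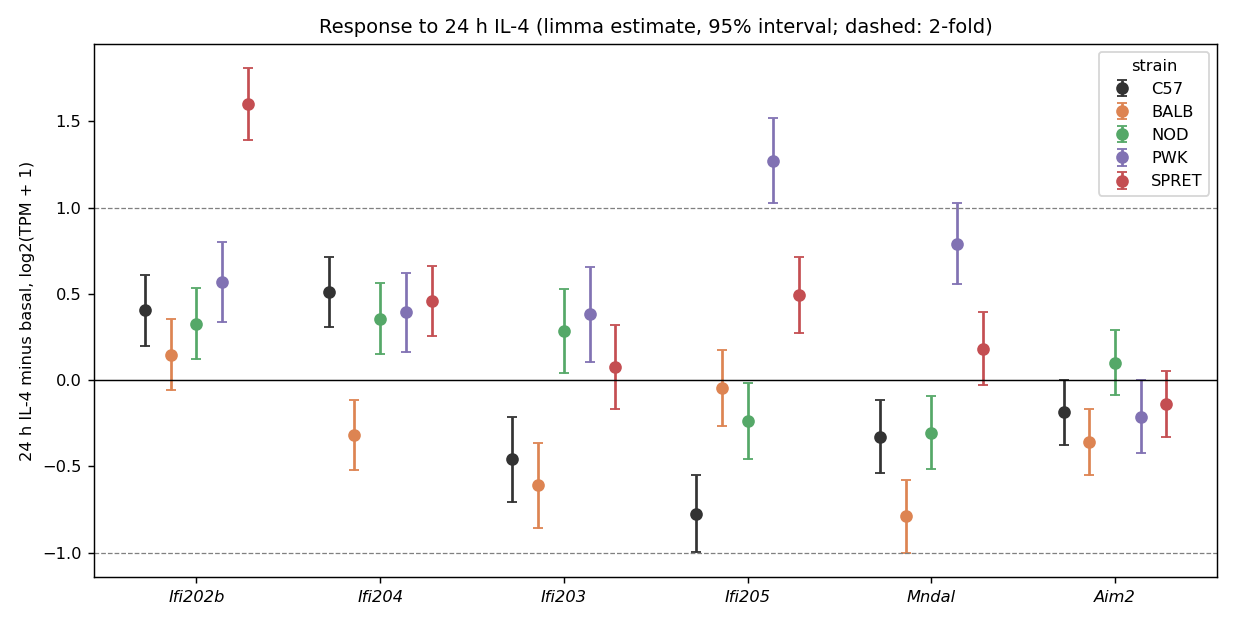
Change after 24 h IL-4 on the log2(TPM + 1) scale for each of the 6 genes in the 5 strains, with 95% confidence intervals from limma. Ifi202b in SPRET (1.60) and Ifi205 in PWK (1.27) pass 2-fold, and Ifi205 in C57 (-0.77) and Mndal in BALB (-0.79) lie furthest below 0.

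The time course repeated C57 and SPRET in separate libraries and added 1 and 6 h. Ifi202b was listed at 0 in 7 of 8 C57 libraries and at 0.063 TPM in the other. SPRET libraries read 10.5 and 8.003 TPM at basal, 56.8 and 44.1 TPM at 1 h, 65.0 and 57.8 TPM at 6 h, and 47.1 and 45.7 TPM at 24 h. No treated library overlapped the basal pair, and the level was already raised at 1 h. The changes were 2.33 ± 0.13 (SE, limma adjusted p = 1.3e-07), 2.61 and 2.22 on the log2(TPM + 1) scale. Basal SPRET levels in this set lay well below the 73.9 to 89.1 TPM of the strain set, a difference between experiments that was not tested.

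Ifi204 also rose early in SPRET. Its SPRET libraries read 12.3 and 11.8 TPM, then 28.2 and 24.4, 27.0 and 25.6, and 17.5 and 15.4 TPM at 1, 6 and 24 h. The changes were 1.06 ± 0.14 (SE, limma adjusted p = 0.00021), 1.07 and 0.42 (adjusted p = 0.031) on the log2(TPM + 1) scale, and the 1 h change was 0.96 without the first library at that time. C57 read 41.9 and 45.0 TPM at basal and 62.3 and 76.4 TPM at 6 h (0.66, adjusted p = 0.0046), then 38.7 and 49.4 TPM at 24 h (0.01, adjusted p = 0.97), a range that held the basal one. The 24 h rise of Ifi204 seen in C57 of the strain set was thus not found in these libraries.

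Aim2 fell in SPRET over the same hours. Its SPRET libraries read 48.5 and 45.7 TPM at basal, 47.4 and 40.4 TPM at 1 h, 33.9 and 28.9 TPM at 6 h, and 33.7 and 28.2 TPM at 24 h. The changes at 6 and 24 h were -0.57 (limma adjusted p = 0.0039) and -0.60 (adjusted p = 0.0026). C57 libraries stayed between 14.1 and 21.0 TPM without a change past the threshold. Basal SPRET exceeded C57 by 1.23 (adjusted p = 2.9e-06) here, against 0.44 in the strain set, so the size of the Aim2 strain difference varied between experiments.

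Of the other members, Ifi203 fell at 24 h in C57 from 16.0 and 16.6 TPM to 9.02 and 11.1 TPM (-0.65, limma adjusted p = 0.0011), and Ifi205 from 1.66 and 2.27 TPM to 0.955 and 0.825 TPM (-0.64, adjusted p = 0.0093). Both had also fallen in C57 in the strain set. Mndal in C57 ran from 15.0 to 29.2 TPM with no change past the threshold. In SPRET, Mndal read 15.0 and 13.5 TPM at basal and 24.3 and 23.5 TPM at 6 h (0.71, adjusted p = 0.04), and 0.64 with an adjusted p of 0.065 under quantile normalization. Ifi203 rose by 0.41 at 6 h.

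In SPRET, 2, 2 and 1 of 6 members were called higher at 1, 6 and 24 h, against 1.41%, 2.81% and 2.62% of 12088 genes. In C57 no member was called higher, against 0.703%, 1.56% and 2.85%. The SPRET minus C57 response of Ifi202b was 2.28 ± 0.19 (SE, limma adjusted p = 3.1e-05) at 1 h, 2.61 at 6 h and 2.22 at 24 h, where 0.563%, 1.36% and 3.09% of genes were called higher, in a test added after the values were seen. With C57 near 0 throughout, these values restate the SPRET change and say nothing of a C57 response. At basal, SPRET stood above C57 for Ifi202b and Aim2 and below for Ifi204 (-1.77) and Ifi205 (-1.25), 2 and 2 members against 9.92% and 8.88% of all genes. At 24 h Ifi202b (5.57) and Ifi204 (-1.36) remained past 2-fold, 1 and 1 against 10.7% and 9.75%. The signs were those of the strain set, but sizes were smaller for Ifi205 (-1.25 here and -3.45 there at basal), Ifi203 (-0.90 and -1.74) and Mndal (-0.61 and -1.28), and the last 2 were no longer past 2-fold. Basal C57 Ifi205 read 1.66 and 2.27 TPM here and 11.8 to 13.6 TPM there. The 6 mast cell and basophil markers summed to 20.8 to 35.3 TPM in SPRET and 0.39 to 1.15 TPM in C57 of the time course, and their part in these differences was not tested.

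**Figure D3:**
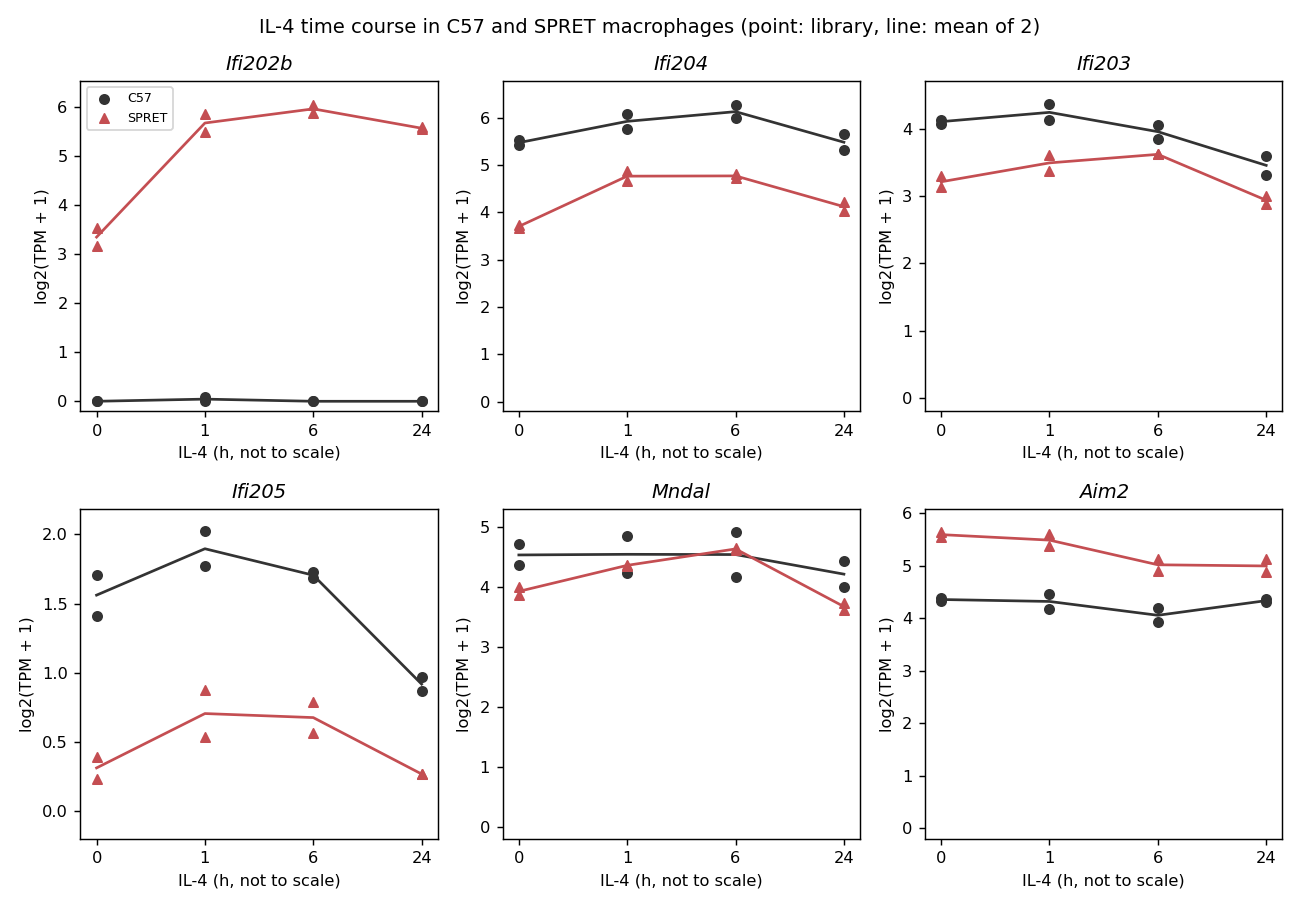
Level as log2(TPM + 1) of the 6 genes against hours of IL-4 (axis not to scale) in C57 and SPRET, with each library as a point and lines through the means of 2. Ifi202b in SPRET goes from 10.5 and 8.003 TPM to 56.8 and 44.1 TPM within 1 h, while Aim2 in SPRET declines from 6 h.

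In the deletion set, Egr2 itself read 75.6 to 100.7 TPM in IL-4-treated Egr2WT and 0.854 to 7.05 TPM over all Egr2MKO libraries. EGR2 is a zinc finger transcription factor induced by IL-4. Ifi202b was 0 in all Egr2WT libraries and at most 1.43 TPM in Egr2MKO, and did not pass the filter, so 5 members were tested. After 24 h of IL-4, Ifi203, Ifi204, Ifi205 and Mndal were higher in Egr2MKO than in Egr2WT, and Aim2 was not. Only Egr2MKO libraries carried LyzM-Cre, so effects of Cre and of the deletion cannot be told apart. Summed macrophage markers were lower in Egr2MKO (12727 to 13267 TPM against 15408 to 15632 TPM at 24 h), as were neutrophil markers (10.8 to 16.3 TPM against 19.2 to 21.0 TPM), and dendritic cell markers were higher at low levels (1.68 to 2.09 TPM against 1.10 to 1.21 TPM). Their part in the genotype differences was not tested.

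Ifi204 libraries read 46.1 and 52.1 TPM in basal Egr2WT and 43.4 and 48.5 TPM at 24 h, against 87.5 and 82.3 TPM and 125.4 and 123.2 TPM in Egr2MKO. The difference was 0.78 ± 0.09 (SE, limma adjusted p = 0.00014) at basal and 1.42 ± 0.09 (adjusted p = 1.8e-07) at 24 h. The genotypes did not overlap at any time. Egr2MKO rose with IL-4 by 0.55 (adjusted p = 0.00059), and the genotype difference in the 24 h response was 0.64 (adjusted p = 0.0058).

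Ifi203 fell in Egr2WT from 20.2 and 20.1 TPM at basal to 15.9 and 13.8 TPM at 6 h and 10.2 and 9.67 TPM at 24 h (-0.95, limma adjusted p = 1.6e-05). Egr2MKO libraries read 36.3 and 31.4 TPM at basal and 33.4 and 31.6 TPM at 24 h, overlapping. The genotype difference was 0.72 ± 0.10 (SE, adjusted p = 6e-04) at basal and 1.62 ± 0.10 (adjusted p = 1.7e-07) at 24 h. The 24 h responses differed by 0.90 (adjusted p = 0.0014).

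Mndal was not called different between genotypes at basal (0.31, limma adjusted p = 0.14). Egr2WT read 28.3 and 32.0 TPM at basal and 12.2 and 16.2 TPM at 24 h (-1.05, adjusted p = 2.9e-05), and Egr2MKO read 38.9 and 36.0 TPM and then 33.2 and 39.5 TPM. It was the 1 member of 5 called lower in Egr2WT at 24 h, against 2.04% of genes, and read -0.99 with median-ratio scaling. The genotype difference was 1.31 ± 0.12 (SE, adjusted p = 4.4e-06) at 24 h, and the responses differed by 1.00 (adjusted p = 0.0021). Ifi205 read 0.255 and 0.768 TPM in basal Egr2WT and 4.00 and 3.49 TPM in Egr2MKO, a difference of 1.67 ± 0.25 (SE, adjusted p = 0.00079). At 24 h it read 0.348 and 0.877 TPM against 3.74 and 3.54 TPM (1.54 ± 0.25, adjusted p = 0.00039), so that its genotype gap was present before IL-4.

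Aim2 libraries ran from 17.2 to 23.7 TPM in Egr2WT and from 16.5 to 25.3 TPM in Egr2MKO over all times. Egr2MKO went from 25.3 and 20.1 TPM at basal to 18.4 and 16.5 TPM at 6 h, and stayed below basal at 24 h. Egr2WT went from 21.6 and 23.7 TPM to 17.7 and 17.2 TPM at 6 h, and overlapped basal at 24 h. The genotypes overlapped at basal, 1 and 6 h, and at 24 h Egr2MKO read 18.9 and 17.0 TPM against 20.2 and 22.0 TPM, without overlap. The genotype differences were -0.00 at basal (95% confidence interval -0.24 to 0.23) and -0.22 at 24 h (-0.46 to 0.01, limma adjusted p = 0.12). At 24 h the value was -0.36 (adjusted p = 0.015) with median-ratio scaling and -0.35 (adjusted p = 0.019) with quantile normalization, in the direction opposite to the other 4 genes. The median over all 12079 genes was 0.12 higher in Egr2MKO at 24 h before rescaling.

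In all, 1, 1, 2 and 4 of 5 members were called higher in Egr2MKO at basal, 1, 6 and 24 h, where 0.373%, 0.48%, 0.894% and 2.42% of genes were. The call at basal and at 1 h was that of Ifi205. Ifi205, Ifi204 and Mndal share 75-base words with Ifi211, which was itself higher in Egr2MKO at basal (1.24) and 24 h (1.91). How far these calls rest on shared reads was not tested. The 6 h calls of Ifi203 (1.02) and Ifi205 (1.87) had adjusted p of 0.053 and 0.088 when fitted on those 4 libraries alone. None of the 3 response differences was past 2-fold, where 1.13% of genes were called higher. At adjusted p alone, 8.78% of genes had a higher 24 h response in Egr2MKO.

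**Figure D4:**
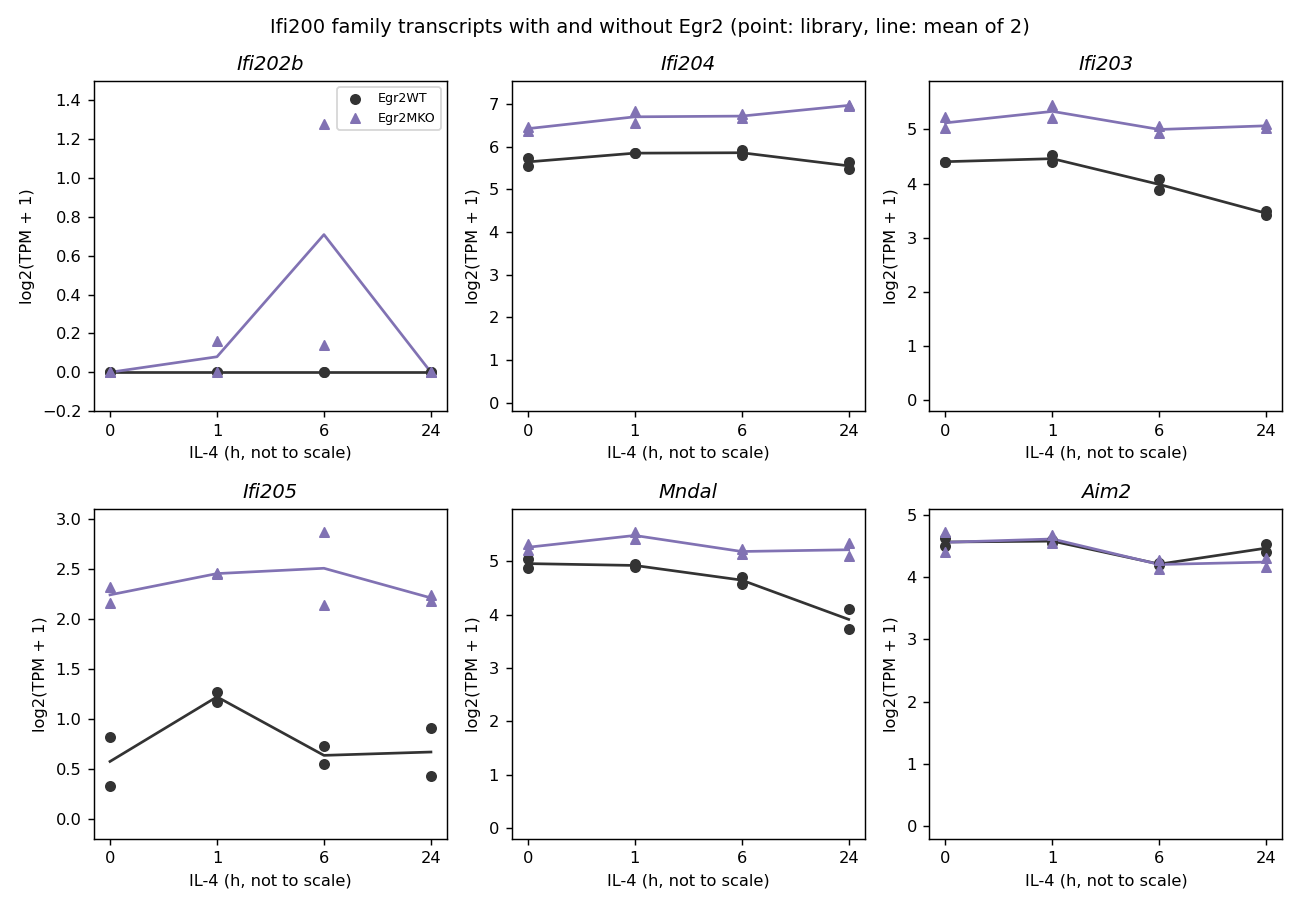
Level as log2(TPM + 1) of the 6 genes against hours of IL-4 (axis not to scale) in Egr2WT and Egr2MKO, with each library as a point and lines through the means of 2. Ifi203 and Mndal fall in Egr2WT and not in Egr2MKO at 24 h, Ifi204 rises in Egr2MKO, and Aim2 overlaps between genotypes up to 6 h.

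The neighbouring and functionally related genes were counted from lists. At 24 h of IL-4, the 5 other PYHIN genes tested of the 17 symbols listed were all higher in Egr2MKO at adjusted p alone (25.9% of all genes were higher and 11.5% lower), with a median of 1.27, led by Ifi209 (2.31), Ifi211 (1.91), Ifi208 (1.27) and Ifi207 (1.26). Of 26 interferon-stimulated genes, 25 were higher, with a median of 1.40, among them Ifit3 (2.78), Ifit1 (2.43), Oas2 (2.20) and Ifi44 (2.17). Of 14 interferon receptor and transcription factor genes, 12 were higher and 1 lower, led by Irf7 (2.80), the amplifying factor of the interferon response. At basal, 4 of 5 other PYHIN genes and 24 of 26 interferon-stimulated genes were already higher (5.95% of all genes).

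Of 12 inflammasome genes, 6 were higher and 1 lower at 24 h (median 0.41), led by Mefv (1.89), the pyrin gene. That list is wider than the partners of AIM2. It also holds the sensors Nlrp3 and Mefv and the cytokines Il1b and Il18. Of 15 genes of the STING branch, 5 were higher and 1 lower (median 0.22), led by Zbp1 (1.47) and Trex1 (1.32), a Z-form nucleic acid sensor and a DNA exonuclease. Over all genes 25.9% were higher and 11.5% lower, with a median of 0.12, so the counts of the STING branch lie near the background.

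After 24 h of IL-4, the interferon-stimulated genes lower at adjusted p alone numbered 16 of 26 in C57 (median -0.35, 20.5% of all genes lower), 24 in BALB (median -0.74, 24.8%) and 7 in SPRET (12.9%). They numbered 2 each in NOD and PWK, where 6.07% and 6.08% of all genes were lower, a share near the background. In Egr2WT 24 of 26 were lower (median -0.96) and in Egr2MKO 12 (median -0.34), where 18.2% and 11.8% of all genes were lower. Among the 12 inflammasome genes, 7 were lower in SPRET and 7 in BALB, 6 in C57, 4 in NOD and 2 in PWK, against the same background shares. Past 2-fold were Nlrp3 in BALB (-1.03), Nlrp3 (-1.03) and Il1b (-1.26) in NOD, and Il1b (-2.08), Nlrp3 (-1.72) and Il18 (-1.45) in SPRET. Aim2 itself was past 2-fold in none of these strains, although its fall in BALB passed the adjusted p alone.

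In F1 macrophages both alleles sit in the same cells, and the ratio of C57 to the other allele was tested within libraries. Scaled allele values of the cross with SPRET rest on listed lengths that equal the genomic span for 99.3% of genes, so their levels are not comparable with the other tables. For Ifi204 at basal, the C57 allele read 13.7 and 14.5 and the SPRET allele 33.0 and 32.1, a log2 ratio of -1.15 ± 0.15 (SE, limma adjusted p = 0.025). This is opposite to the parental strains, where C57 exceeded SPRET. Ifi205 read 0 and 0.073 for C57 against 2.10 and 2.15 for SPRET (-1.59 ± 0.09, adjusted p = 0.01). Ifi205 entered this test only through the SPRET allele and had to differ, and it dropped out where both alleles had to be above 0, so its direction is given as a description.

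Those were the 2 members of 6 called with the C57 allele lower, against 4.19% of 12256 genes. Leaving out either basal library of this cross, so that 1 remained, gave no call (adjusted p from 0.12 to 0.21), and so did testing without the filter. Aim2 read 25.9 and 23.7 against 46.5 and 41.4, with the SPRET allele higher as in the parents (-0.80, adjusted p = 0.032). Ifi202b, which differed most between the parents, read 1.52 and 0.707 against 1.88 and 1.12 at basal, with no call. Its C57 column stood near its SPRET column, although parental C57 libraries of the strain set never exceeded 0.498 TPM. Whether reads of this gene were split correctly between the alleles was not tested. The values also lie near the added 1, which shrinks a ratio. The lack of a call for Ifi202b therefore does not show equal alleles.

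After IL-4 no member was called in the cross with SPRET, where 2.62% of genes had a lower C57 allele. Ifi205 was lower for C57 at adjusted p = 0.043 by limma (-0.63), and Ifi204 read 13.6 and 14.2 against 30.8 and 23.0 (-0.89, adjusted p = 0.052). The second IL-4 library stood apart for the SPRET allele: Ifi202b read 1.83 and 54.2 in the 2 libraries, Mndal 4.09 and 10.9 and Ifi203 3.47 and 11.0. In that column, 6.32% of the 11452 genes compared were more than 2-fold above the first library. The Ifi202b ratio of -2.42 (adjusted p = 0.24) rests on it.

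In the cross with NOD none of 5 tested members was called in either condition, where 0.21% and 0.249% of 5229 genes were, and none had an unadjusted p under 0.05 by limma, against 408 and 540 genes. Replicates were less alike there, with correlations across genes of 0.732 to 0.844 against 0.911 to 0.968 in the cross with SPRET. Ifi202b read 0 for both alleles in 2 of 4 libraries, 0 and 18.8 for C57 and NOD in the second basal library and 4.35 and 0 in the second IL-4 library. Ifi205 was listed at 0 throughout. Ifi204 read 159.2 and 158.2 for C57 against 124.4 and 73.5 for NOD at basal, and 38.6 and 67.9 against 32.3 and 24.7 with IL-4, higher for C57 in 4 of 4 libraries without a call. Ifi203 was lower for C57 in 4 of 4, with log2 ratios from -2.60 to -0.07. Its mean ratios of -1.34 ± 0.88 (SE) at basal and -1.27 ± 0.88 with IL-4 show that ratios past 2-fold could be missed here, so the lack of calls does not show equal alleles.

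**Figure D5:**
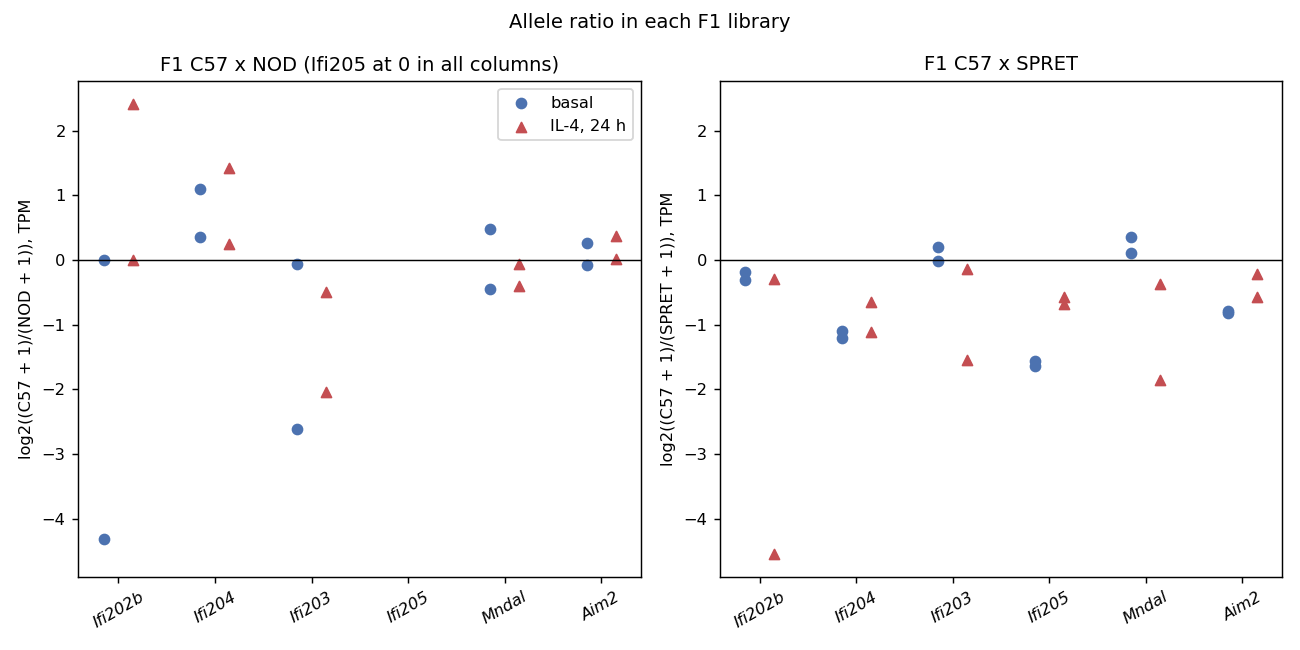
Log2 of the C57 allele over its partner allele (value + 1 in each) for each F1 library, basal and 24 h IL-4, with 0 marking equal alleles. In the cross with SPRET, basal Ifi204, Ifi205 and Aim2 lie below 0 in both libraries, and in the cross with NOD Ifi204 lies above 0 and Ifi203 below it in 4 of 4 libraries.

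The genes most like each member over the 10 group means of the strain set, by Pearson's r of mean log2(TPM + 1), were Abhd1 (0.98), Lyplal1 (0.97) and H2-Q1 (0.97) for Ifi202b. Ifi204 was closest to Ifi209 (0.96) and Ifi205 (0.94), and Ifi205 to Ifi209 (0.97) and Ifi204 (0.94), which lie in the same interval. For Ifi203 they were Tubb4a (0.98), Ube2l6 (0.98) and Sowahc (0.97), for Mndal Naip5 (0.95), Prrg2 (0.94) and Ccdc12 (0.93), and for Aim2 AI504432 (0.95), H2afz (0.94) and Klra2 (0.94). The 10 points share strains and libraries, and 7725 or 7726 genes were searched for each member, so these are descriptions.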

How the data were processed

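The authors mapped reads of each strain to a genome carrying its variants (MMARGE 1.0, STAR 2.5.3), shifted them to mm10 and counted exons with HOMER 4.11.1, and deposited TPM values per gene. Reads of F1 hybrids were mapped to both parental genomes and weighted by the ratio of reads over variants. Columns of DESeq2 fold changes and p-values were not used, nor was the human table. The members, lists and alternatives were chosen with earlier results of these data known. Here log2(TPM + 1) was fitted with limma 3.58.1 (R 4.3.3), one model of group means per table with a mean-variance trend, over genes at 1 TPM or more in at least 2 libraries, with Benjamini-Hochberg adjustment. A call needed an adjusted p under 0.05 and more than 2-fold. F1 libraries were tested on the log2 ratio of alleles (value + 1) against 0. TPM keeps no read counts, so no counting intervals are given. Each member is named; from each list, at most 4 called genes with the largest change are. The scripts were tested on simulated data. Whether counting used strand is not given in the sources used here.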

Additional observations from a re-analysis of the deposited data

Results flagged for a closer look

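The response to IL-4 differed from that of C57 beyond 2-fold in interaction contrasts of limma for the results below. Those of Ifi202b set the rise in SPRET against C57 values at or near 0, so they say little of a C57 response. In the strain set, the PWK response exceeded that of C57 by 2.05 ± 0.16 (SE, adjusted p = 9.6e-10) for Ifi205, higher in 3 of 3 treated PWK libraries than in either basal one, and by 1.12 ± 0.15 (adjusted p = 7.5e-06) for Mndal. The SPRET response exceeded that of C57 by 1.20 ± 0.14 (adjusted p = 3.7e-07) for Ifi202b, which became -0.13 (adjusted p = 0.77) with a pseudocount of 0.1 TPM, and by 1.27 ± 0.15 (adjusted p = 4.6e-07) for Ifi205, whose SPRET values are all below 1 TPM. In the time course, the SPRET minus C57 response of Ifi202b was 2.28 ± 0.19 (adjusted p = 3.1e-05) at 1 h, 2.61 ± 0.19 (adjusted p = 3.9e-06) at 6 h and 2.22 ± 0.19 (adjusted p = 4.2e-06) at 24 h, and C57 was listed at 0 in 7 of 8 libraries.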

How the results depend on the processing

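Counts of members called past 2-fold, summed over the comparisons of a set, were as follows. The 24 h responses of the strain set gave 2 calls, and 5 with a pseudocount of 0.1 TPM, 1 with 5 TPM and 1 among genes with a mean of at least 5 TPM. Response differences gave 4, and 2 with 5 TPM and 2 with the mean filter. The time course gave 5, and 3 with 5 TPM. Egr2 deletion gave 8, and 3 with 5 TPM and 4 with the mean filter, which removes Ifi205. Responses in the deletion set gave 1 (Mndal in Egr2WT), and 2 with 0.1 TPM, 0 with 5 TPM and 0 with median-ratio scaling. F1 alleles gave 2, and 0 with a value of 5 added, 0 without the filter and 1 where both alleles had to be above 0. Strain differences (27) and time-course strain differences (13) stayed within 1.5 times of these under the planned settings. The SPRET minus C57 response of Ifi202b turned to -0.13 (adjusted p = 0.77 by limma) with 0.1 TPM.

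Leaving out 1 library at a time, chosen after seeing the data, gave 2 to 2 calls for strain-set responses, 26 to 28 for strain differences, 3 to 5 for response differences, 4 to 5 for the time course, 12 to 14 for its strain differences, 7 to 10 for Egr2 deletion, 0 to 1 for responses in the deletion set and 0 to 2 for F1 alleles. The count fell to 0 without the first Egr2WT 24 h or the second Egr2WT basal library, and for F1 without either basal library of the cross with SPRET. Leaving out a replicate number at once left 1 library a group in the time course, deletion set and F1 tables and was not run there.

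With the replicate number as a block the counts were 2, 27, 4, 5, 13, 8, 1 and 2, as without it. Within a strain or genotype, deviations of same-numbered libraries correlated above 0.1 in 6 of 24 time-course pairs (highest 0.266). They did so in 2 of 14 strain-set pairs (highest 0.333) and 0 of 24 deletion-set pairs. Between strains or genotypes, 7 of 112 strain-set pairs did, and 0 of 32 in each of the time course and deletion set. The labels do not say what a replicate number stands for. Over 7682 other values of single members, 7606 kept their side of the 2-fold call, 26 entered it, 49 left it with the same sign and 1 called value changed sign. In 102 the sign differed from that of the value reported. The precision of values near 0 TPM is limited by depth, which TPM does not carry.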
